A study of Mus musculus with 31 samples.

Results

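The genes described are 37 genes of striated muscle: the motor, the filaments and the calcium and energy machinery of muscle fibers, with 2 ubiquitin ligases and 2 transcription factors of muscle. They were chosen by name, as the rows of the count table whose gene symbol is on a written list, and all 37 were found among the 39179 genes of the table. The list was written with earlier results of these data known. They are followed through melanomas grown in mice and through cultures of the same melanoma cells, with and without clobetasol propionate, a potent glucocorticoid (GC) of skin ointments.

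The melanoma line 20967 comes from C57BL/6 mice whose melanocytes can be switched to mutant Nras (an LSL allele encoding G12D) by Tyr::CreERT2, a tamoxifen-dependent recombinase driven by the tyrosinase promoter. Parental cells and a derivative without the glucocorticoid receptor (GRKO, made with Cas9 protein and guide RNA and grown from 1 clone) were injected into the skin of the flank of wild-type C57BL/6 mice, whose own cells keep the receptor. Each genotype gave 5 tumors from mice that received a control cream and 5 from mice treated 3 times per week with ointment holding 0.05% clobetasol propionate, 1 tumor per mouse, for 20 tumors in all. The same cells in culture received the solvent DMSO (3 parental and 3 GRKO cultures) or clobetasol propionate (2 parental and 3 GRKO cultures), at a dose given as 10 µM in the sample labels and as 1 µM in the library names and the study design. The age and sex of the mice are not given in the labels. Every tumor was taken whole and unsorted, so its RNA pools cancer cells with all host cells in the piece, and 1 GRKO clone means that an effect of the missing receptor and a trait of that clone cannot be told apart.

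A muscle fiber shortens when myosin heads of the thick filaments pull on the actin of the thin filaments, and the strong elastic protein titin and the Z disc hold both in register. Calcium released from the sarcoplasmic reticulum starts the movement by binding troponin C, one of the 3 troponin subunits on the thin filament, and a pump returns it to the store. Several of these proteins, such as the myosin heavy chains and troponins, have separate forms for fast skeletal fibers and for slow fibers or heart. Some, like the myosin heavy chains, also have forms for the embryo. Glucocorticoids are known to make skeletal muscle waste, with the ligases Trim63 (MuRF1) and Fbxo32 (atrogin-1) induced in wasting fibers.

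What was measured is the number of 3′ mRNA tags per gene. The tumor libraries held 15528066 to 26386770 counts, with medians of 17750913 for parental control, 20602855 for parental GC, 19871559 for GRKO control and 19736725 for GRKO GC tumors. The culture libraries held 14441166 to 22463188 counts. Levels are given as CPM, the counts of a gene brought to a common library size with TMM factors, which set most genes equal between libraries, and in the order of replicates 1 to 5 (1 to 3 in culture). A 3′ tag is counted once per transcript whatever its length, so the CPM of different genes were compared without dividing by length, and differences in how well each 3′ end is captured remain in them. The count of 3 in 1 library, taken as the floor of detection, lies between 0.114 and 0.208 CPM before TMM factors are applied. Intervals and this floor cover counting error only, since the tags carry no molecular identifiers. A gene is called changed when its Benjamini-Hochberg adjusted p from edgeR, taken over all genes tested, is under 0.05 and its fold change is at least 1.5. Fold changes are on the log2 scale with their standard error (SE), and the permutation p beside them is 2-sided and exact, its smallest possible value being 0.00794 for 5 against 5 tumors and 0.1 for the cultures.

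The edited gene was looked at first. Nr3c1, which encodes the glucocorticoid receptor, measured 63.4, 57.1, 44.9, 55.6 and 52.2 CPM in parental control tumors. Its level was 20.7, 27.3, 31.4, 31.8 and 23.5 CPM in GRKO control tumors, all 5 of them below all 5 parental ones (log2 fold change -1.02, SE 0.24, adjusted p = 0.0313). The log2 fold change was -0.80 (adjusted p = 0.960) with GRKO control tumors 1, 2, 3 and 5 left out. In GC tumors it was 53.4, 24.4, 48.2, 37.3 and 49.8 CPM for the parental and 47.9, 21.7, 58.0, 32.5 and 49.4 CPM for the GRKO line, and the groups overlap. In DMSO cultures it was 33.2, 30.0 and 35.6 CPM in parental and 24.8, 21.0 and 16.4 CPM in GRKO cells, so every GRKO culture was lower, with a log2 fold change of -0.67 that did not pass the test (adjusted p = 0.0840). Small edits can leave a transcript in place, and 3′ tags lie outside an edited coding exon, so these counts do not check the loss of the protein.

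One group of libraries stands apart. At an equal depth of 15528066 counts, GRKO control tumors 1, 2, 3 and 5 had 13403, 14794, 15145 and 14260 genes with a count, while tumor 4 had 16773 and the other 15 tumors had 15157 to 16901. The summed level of 6 genes that every cell uses, led by Actb, was 45879, 42301, 32974, 16637 and 32012 CPM in GRKO control tumors and 14375 to 28411 CPM in the other groups. Keratinocyte markers (12 genes, all tested, led by Krt14) summed to 6281, 6805, 4958, 3989 and 4096 CPM in GRKO control tumors. They summed to 2927, 2744, 3174, 2841 and 5090.2 CPM in parental control, 3357, 4734, 3218, 3608 and 3634 CPM in parental GC and 2184, 2867, 3164, 3267 and 2778 CPM in GRKO GC tumors. The part of these differences in the results on muscle genes was not tested. Each comparison that uses the GRKO control tumors was run again with those 4 libraries left out, a choice made after seeing the data, and the values are given for the genes called in those comparisons. Only 1 control tumor is left in such a fit, so a call lost there with a similar fold change does not show that the change came from the removed tumors.

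Striated muscle RNA was present in every tumor. Of the 37 genes, 29 had over 3 counts in all 20 tumors, and 35 passed the filter on low levels (0.5 CPM in at least 3 tumors), the exceptions being Myh7 and Myod1. The mean over the 20 tumors ran from 259 CPM for Acta1, skeletal actin, through 80.1 for Tnnt2, 74.9 for Ttn, 60.2 for Eno3 and 40.7 for Tnnc2, down to 0.120 for Myh7 and 0.0998 for Myod1. The cultures were different. There, 13 of the 37 genes had 0 counts in all 11 libraries, among them Ckm, Pvalb and 5 of the 5 myosin heavy chains on the list (Myh1, Myh2, Myh4, Myh7, Myh8), and 18 stayed at or under 3 counts in every culture. The filter passed 8 in culture: Acta1, Actn3, Eno3, Fbxo32, Mylpf, Pygm, Tnnc1 and Tnnt2. All but Actn3 of these had over 3 counts in all 11 cultures.

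Summed over the 37 genes, muscle RNA measured 945, 826, 804, 754 and 756 CPM in parental control tumors. The sum was 1289, 875, 814, 1215 and 986 CPM in parental GC tumors, with tumors 1, 4 and 5 above every parental control tumor. It was 1077, 1078, 1223, 1098 and 778 CPM in GRKO control tumors and 799, 899, 972, 706 and 671 CPM in GRKO GC tumors, where 4 of the 5 control tumors lie above all 5 GC tumors and control tumor 5 lies among them. This separation depends on the scaling. Without TMM factors the sums were 811, 879.9, 1125, 1203 and 637 CPM in GRKO control and 878, 898, 1096, 689 and 732 CPM in GRKO GC tumors, so control tumors 3 and 4 alone lay above all GC tumors and control tumor 5 lay below them. The group means were 817, 1036, 1051 and 809 CPM in that order (862, 1069, 931 and 858 CPM without TMM factors), and Acta1 made up a large part of them. Without Acta1 the means were 548, 809, 724 and 597 CPM. The cultures summed to 214, 206 and 205 CPM (parental DMSO), 195 and 201 CPM (parental GC), 254, 233 and 282 CPM (GRKO DMSO) and 231, 262 and 257 CPM (GRKO GC), most of it from Eno3 and Tnnt2. In whole tumors, more muscle cells and more muscle RNA per cell cannot be told apart, and neither can fewer and less. The tumor sums also hold Eno3 and Tnnt2, which the cultured cancer cells expressed at means of 165 and 50.1 CPM. The part of the cancer cells in the tumor sums was not tested.

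**Figure D1:**
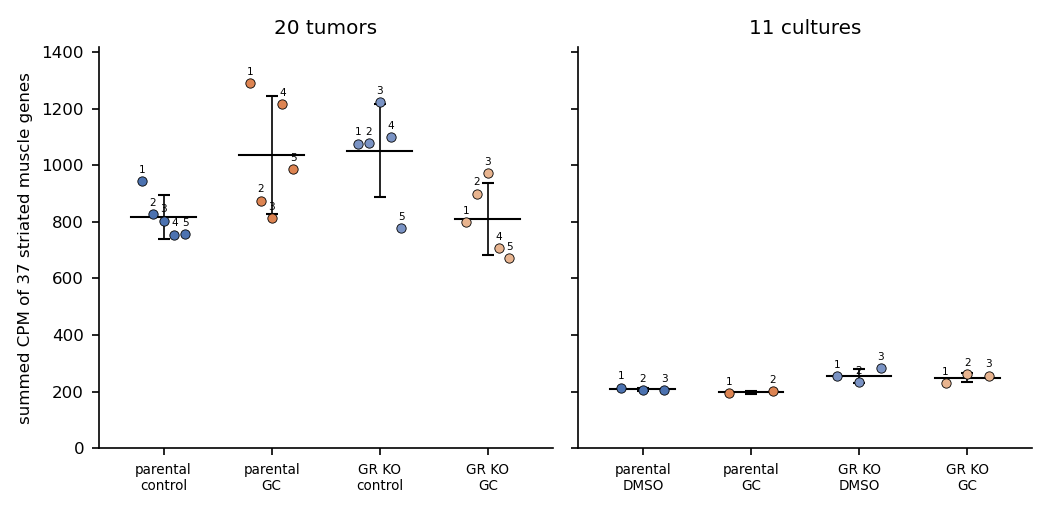
Summed level of the 37 striated muscle genes in CPM for each library, points numbered by replicate, with the mean and standard deviation of each group as a bar. Every tumor (671 to 1289 CPM) lies above every culture (195 to 282 CPM).

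Muscle RNA was not carried by the same tumor for every gene. Parental GC tumor 4 had the highest level of 7 genes and parental GC tumor 1 of 6, and each of these tumors was among the 3 highest for 17 of the 37. GRKO control tumor 4 was highest for 5 genes and GRKO control tumor 3 for 4. Parental control tumor 5 was lowest for 7 genes, including Ttn, Neb, Ryr1, Atp2a1, Tcap and Des. No tumor was highest for more than 7 of the 37.

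GC treatment of mice with parental tumors asks what the hormone does when cancer cells and host both have the receptor. The study reports that GC held back the growth of parental tumors and not of GRKO tumors, so tumor size may differ between the groups. The sizes of the sequenced tumors are not in the labels, and their part in the muscle values was not tested. Of the 35 muscle genes tested, 2 rose, Neb and Ttn, and none fell. The share of all 15919 tested genes called in this comparison was 0.779%, so 2 of 35 is more than that share but rests on few genes. The remaining 33 did not pass, although 29 of the 35 had a positive log2 fold change, with a median of 0.50 against 0.00 over all genes tested. In 3 genes every GC tumor lay above every control tumor, Neb, the calcium pump gene Atp2a1 and the fast troponin I gene Tnni2, the last chosen after its values were seen, while 2.49% of all tested genes did so. Both genes that rose encode giant proteins that run along the filaments.

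Neb encodes nebulin, which lies along the thin filament and helps set its length. It measured 18.8, 31.4, 11.7, 19.7 and 6.52 CPM in parental control tumors and 60.1, 47.6, 44.4, 49.5 and 58.4 CPM in parental GC tumors. Every GC tumor was above every control tumor, the closest values being 31.4 and 44.4 CPM. The means were 17.6 ± 9.40 and 52.0 ± 6.88 CPM (SD, 5 tumors per group), for a log2 fold change of 1.56 (SE 0.37, adjusted p = 0.0437, exact permutation p = 0.00794). GRKO control tumors had 7.84, 15.3, 12.5, 23.9 and 19.7 CPM and GRKO GC tumors 23.2, 21.6, 47.0, 13.9 and 13.6 CPM. These overlap, and GC tumor 3 alone stands above all controls. The log2 fold change there was 0.59 (adjusted p = 0.329), and the parental GC effect minus the GRKO one was 0.97 (adjusted p = 0.287), which did not pass.

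Ttn encodes titin, the spring that spans from Z disc to the middle of the thick filament. Parental control tumors had 86.1, 58.2, 34.5, 53.9 and 26.4 CPM and parental GC tumors 134, 139, 77.6, 105 and 116 CPM. All GC tumors but the third were above the highest control, control tumor 1. The means were 51.8 ± 23.3 and 114 ± 24.7 CPM, a log2 fold change of 1.14 (SE 0.26, adjusted p = 0.0348, exact permutation p = 0.0159). GRKO tumors had 66.9, 65.0, 44.1, 50.0 and 77.0 CPM with control cream and 61.6, 80.9, 99.5, 63.2 and 58.9 CPM with GC. The groups overlap (log2 fold change 0.27, adjusted p = 0.558), and the difference of the GC effects was 0.88 (adjusted p = 0.188).

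Both calls sit close to the threshold. Leaving out 1 of the 10 parental tumors at a time, Neb kept its call only without control tumor 2 (log2 fold changes 1.36 to 1.88, adjusted p 0.0152 to 0.145), and Ttn kept it only without control tumor 1, control tumor 2 or GC tumor 3 (0.98 to 1.40, adjusted p 0.00974 to 0.124). DESeq2 called 4 of the muscle genes (Atp2a1, Neb, Tcap and Ttn) and 378 of all 15919, 1 was called without TMM scaling (Ttn) and 1 when the pair of groups was fitted alone (Neb).

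GC treatment of mice with GRKO tumors shows what the hormone does when only host cells can sense it. Here 4 of the 35 muscle genes fell, Tnnc2, Tnnt1, Myh4 and Actn2, and none rose. The share of all tested genes called was 6.42%, and 4 of 35 is not far from it, so the count by itself is no result about muscle genes. The median log2 fold change of the 35 was -0.25, with 24 below 0 and 11 above, while the median of all genes was 0.05. Without TMM scaling the median of all genes moved to 0.31 and that of the muscle genes to -0.05, and 1 gene (Tnnc2) kept its call. DESeq2 called 6 of the muscle genes (Actn2, Ckm, Myh4, Tnnc2, Tnni2 and Tnnt1) and 1779 of all 15919.

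Tnnc2 encodes the fast skeletal troponin C, the calcium sensor of the thin filament. It measured 56.5, 72.3, 61.3, 70.2 and 36.8 CPM in GRKO control tumors and 25.0, 23.7, 25.9, 16.9 and 21.7 CPM in GRKO GC tumors. All 5 GC tumors were below all 5 controls, the nearest being 25.9 and 36.8 CPM. The means were 59.4 ± 14.2 and 22.7 ± 3.57 CPM, a log2 fold change of -1.39 (SE 0.23, adjusted p = 0.00206, exact permutation p = 0.00794). The call held in 10 of 10 fits that each left out 1 tumor (-1.52 to -1.30). With only GRKO control tumor 4 left in its group the log2 fold change was -1.61 and missed the threshold (adjusted p = 0.0595), with that single tumor assumed to vary like the other groups. An exon of Ube2c lies on the opposite strand at the Tnnc2 gene.

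Tnnt1, the slow skeletal troponin T that ties the troponin complex to tropomyosin, measured 16.3, 11.1, 7.45, 2.74 and 8.60 CPM in GRKO control tumors and 2.72, 2.48, 2.97, 4.02 and 1.45 CPM in GRKO GC tumors. Control tumors 1, 2, 3 and 5 were above every GC tumor, and control tumor 4 lay among them. The log2 fold change was -1.75 (SE 0.47, adjusted p = 0.0290, exact permutation p = 0.0238), from 9.23 ± 4.97 to 2.73 ± 0.925 CPM. The call did not hold in several other fits. With GRKO control tumors 1, 2, 3 and 5 left out the direction turned (0.02, adjusted p = 1.00), and the number of genes detected as a covariate, added after seeing the data, brought it to -0.96 (adjusted p = 0.392). It was also lost without control tumor 1 or 2 or GC tumor 1, 3 or 5 (-1.98 to -1.45 over the 10 fits), without TMM scaling (-1.41, adjusted p = 0.0543) and with the pair of groups fitted alone (-1.74, adjusted p = 0.0658).

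Actn2 encodes the alpha-actinin that crosslinks actin at the Z disc of heart and of all skeletal fibers. It measured 7.77, 22.4, 9.63, 8.65 and 15.9 CPM in GRKO control tumors and 6.11, 3.39, 6.70, 5.29 and 3.90 CPM in GRKO GC tumors. Every GC tumor was below every control. The log2 fold change was -1.34 (SE 0.33, adjusted p = 0.0204, exact permutation p = 0.00794). Parental tumors had 6.18, 4.65, 3.81, 3.90 and 6.48 CPM with control cream and 5.66, 5.02, 3.54, 5.02 and 6.27 CPM with GC, much like the GRKO GC tumors, so the GRKO control group is the one that stands out. The call was lost without control tumor 2 or GC tumor 5 (-1.47 to -1.04 over the 10 fits), with the number of genes detected as a covariate (-1.27, adjusted p = 0.113), without TMM scaling (-1.03, adjusted p = 0.0569), with the pair of groups fitted alone (-1.34, adjusted p = 0.0737), and with control tumors 1, 2, 3 and 5 left out (-0.74, adjusted p = 0.720).

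Myh4 encodes myosin heavy chain 2b, the motor of the fastest fibers. It measured 51.4, 31.4, 18.6, 53.0 and 16.2 CPM in GRKO control tumors and 16.4, 16.2, 16.5, 5.45 and 13.4 CPM in GRKO GC tumors. Control tumors 1 to 4 lay above every GC tumor, control tumor 5 fell within the GC range, and GC tumor 4 was the lowest of all 20. The means were 34.1 ± 17.5 and 13.6 ± 4.73 CPM, a log2 fold change of -1.33 (SE 0.35, adjusted p = 0.0268, exact permutation p = 0.0317). Parental tumors had 20.6, 32.2, 32.5, 24.9 and 16.8 CPM with control cream and 55.2, 18.4, 38.8, 36.5 and 29.5 CPM with GC, a log2 fold change of 0.49 (adjusted p = 0.548). The GRKO call was lost without control tumor 1 or GC tumor 3 or 5 (-1.51 to -1.10 over the 10 fits), without TMM scaling (-1.07, adjusted p = 0.0848) and with the pair of groups fitted alone (-1.33, adjusted p = 0.0676). With control tumors 1, 2, 3 and 5 left out the log2 fold change was -1.94 (adjusted p = 0.0903).

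**Figure D2:**
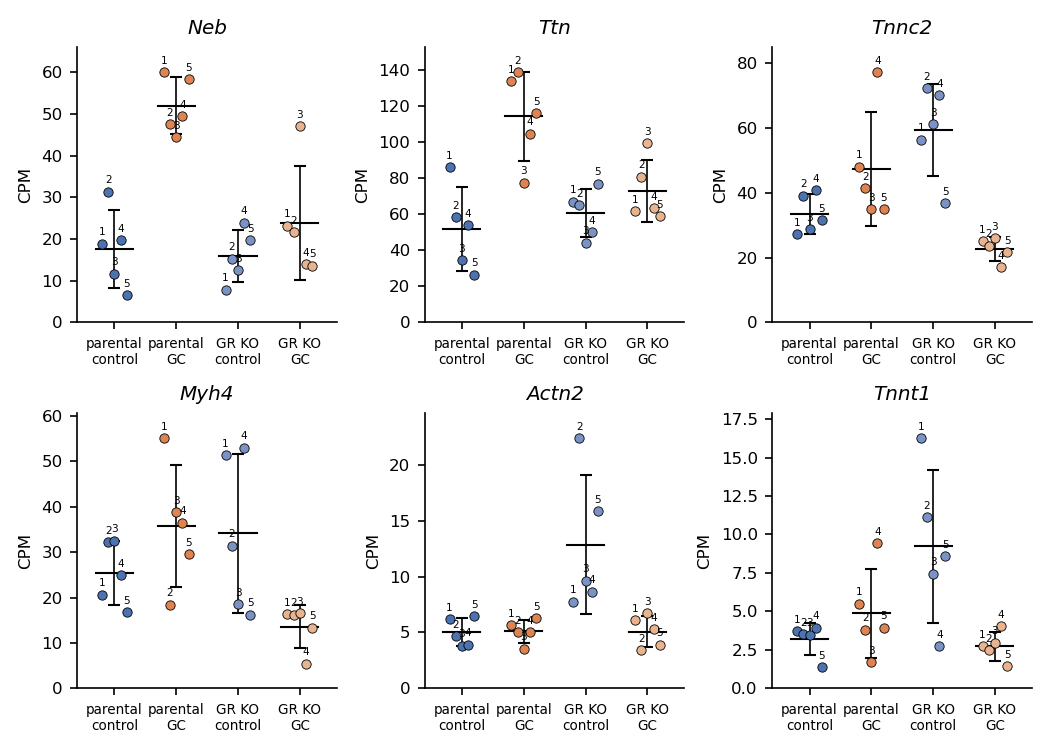
Levels in CPM of the muscle genes called changed in a tumor comparison, except Tnnt2, which has its own figure. Each of the 20 tumors is shown (points numbered by replicate, bars for mean and standard deviation). Tnnc2 in the 5 GRKO GC tumors (16.9 to 25.9 CPM) lies below the 5 GRKO control tumors (36.8 to 72.3 CPM).

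Whether the GC effect differs between the genotypes was tested directly, as the effect in parental tumors minus that in GRKO tumors. Of the 35 muscle genes 1 passed, Tnnc2, against 0.195% of all tested genes. Its parental tumors had 27.3, 39.1, 28.8, 40.8 and 31.5 CPM with control cream and 48.1, 41.5, 35.0, 77.3 and 34.9 CPM with GC (log2 fold change 0.50, adjusted p = 0.322), beside the fall in GRKO tumors. The difference was 1.89 (SE 0.33, adjusted p = 0.0223). It was lost without parental control tumor 3, GRKO control tumor 2 or GRKO GC tumor 5 (1.64 to 2.02, adjusted p up to 0.0808), and with GRKO control tumors 1, 2, 3 and 5 left out (2.12, adjusted p = 0.124). Over the 35 genes the difference was positive for 29 and negative for 6, with a median of 0.91 where the median of all genes was -0.04, and 18 of the 35 had an unadjusted p under 0.05, as did 3192 of all 15919. Without TMM scaling these medians were 0.70 and -0.33, and edgeR called 0 of the muscle genes, with 11 of them at an unadjusted p under 0.05. DESeq2 called 8 of the muscle genes (Actn2, Myh4, Mylpf, Ryr1, Tcap, Tnnc2, Tnni2 and Tnnt1) and 817 of all 15919.

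**Figure D3:**
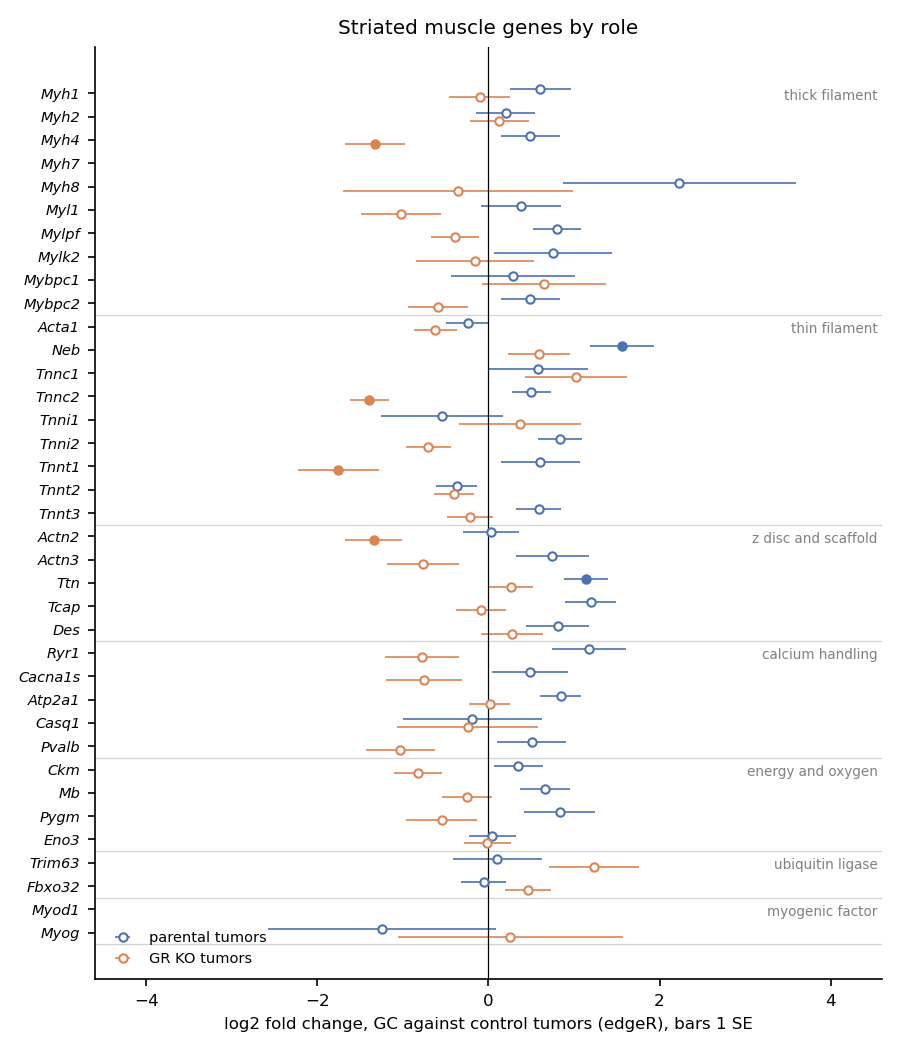
Log2 fold change of GC over control with its standard error for each muscle gene tested in tumors, parental beside GRKO; filled points passed the test. The parental values are mostly above 0 (29 of 35) and the GRKO values mostly below (24 of 35).

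Comparing GRKO with parental tumors under control cream asks what loss of the receptor in the cancer cells does without added hormone. Of the 35 muscle genes 2 were higher in GRKO tumors, Actn2 and Tnnt2, and none was lower, where 2.25% of all tested genes were called. Actn2 had a log2 fold change of 1.36 (SE 0.33, adjusted p = 0.0347, exact permutation p = 0.00794), every GRKO control tumor being above every parental one. The median of the 35 was 0.29, with 26 above 0 and 9 below, beside -0.04 for all genes. Neither call held without TMM scaling, which moved the median of all genes to -0.30 (Actn2 1.08, adjusted p = 0.0819; Tnnt2 0.61, adjusted p = 0.137), nor with the replicate number as a block (Actn2 1.34, adjusted p = 0.0510; Tnnt2 0.89, adjusted p = 0.0644), nor with the number of genes detected as a covariate (Actn2 1.30, adjusted p = 0.180; Tnnt2 0.63, adjusted p = 0.405), nor with the pair of groups fitted alone (Actn2 1.36, adjusted p = 0.0834; Tnnt2 0.90, adjusted p = 0.0942), nor with GRKO control tumors 1, 2, 3 and 5 left out (Actn2 0.77, adjusted p = 0.966; Tnnt2 0.15, adjusted p = 1.00). Leaving out 1 tumor at a time, Actn2 kept its call without parental control tumor 5 or GRKO control tumor 1, 3 or 4 (1.06 to 1.50), and Tnnt2 without GRKO control tumor 4 or 5 (0.76 to 1.03).

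Under GC, 1 of the 35 muscle genes differed between the genotypes, Tnnc2, which was lower in GRKO tumors, and 0.634% of all tested genes were called. Its log2 fold change was -1.06 (SE 0.23, adjusted p = 0.0256, exact permutation p = 0.00794), all 5 GRKO tumors (16.9 to 25.9 CPM) being below all 5 parental ones (34.9 to 77.3 CPM). The call was lost without parental GC tumor 4 or any 1 of the 5 GRKO GC tumors (-1.16 to -0.81, adjusted p 0.0258 to 0.0995), without TMM scaling (-0.996, adjusted p = 0.0684) and with the pair of groups fitted alone (-1.06, adjusted p = 0.0558). In 4 genes every GRKO GC tumor lay below every parental GC tumor, Myh4, Tnni2, the perinatal myosin gene Myh8 and Tnnc2, and in 1, Tnnt2, every one lay above. Of all tested genes, 2.31% lay below in this way and 1.53% above. Of these muscle genes Tnni2 and Myh8 were chosen after their values were seen. The median of the 35 was -0.83, with 9 above 0 and 26 below, beside 0.01 for all genes. This comparison and the GC comparisons share their GC tumors, so their values are not independent.

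The myosin heavy chain motors of the thick filament were those of fast adult fibers. Of 28130 counts from 6 heavy chain genes over the 20 tumors, Myh2 (chain 2a) gave 45.1%, Myh4 (2b) 38.0% and Myh1 (2x) 15.3%. Perinatal Myh8 gave 1.07%, embryonic Myh3 0.405% and Myh7, the chain of slow fibers and heart, 0.167%. The share of Myh4 was 41.7% in parental control, 44.0% in parental GC, 44.2% in GRKO control and 21.0% in GRKO GC tumors, and that of Myh2 was 41.3, 35.3, 42.4 and 63.1%. In GRKO GC tumor 4 the share of Myh4 was 12.0% (Wilson 95% interval 10.0 to 14.4%). Shares of pooled counts were not tested. Myh2 itself had 55.7, 34.0, 63.9, 20.1 and 13.6 CPM in GRKO control and 34.3, 35.7, 68.4, 33.9 and 32.3 CPM in GRKO GC tumors, and these overlap (log2 fold change 0.13, adjusted p = 0.859).

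Parental tumors had 40.6, 20.8, 19.1, 21.4 and 25.3 CPM of Myh2 with control cream and 29.2, 28.5, 15.3, 42.3 and 30.6 CPM with GC (log2 fold change 0.20, adjusted p = 0.847). Myh1 measured 6.24, 6.72, 10.5, 12.2 and 11.1 CPM in parental control and 24.2, 7.64, 12.6, 9.65 and 17.2 CPM in parental GC tumors, where tumors 1, 3 and 5 exceed every control (log2 fold change 0.61, adjusted p = 0.449). In GRKO tumors Myh1 had 19.9, 8.78, 5.67, 10.6 and 7.496 CPM with control cream and 9.05, 8.41, 11.9, 5.98 and 13.4 CPM with GC (log2 fold change -0.10, adjusted p = 0.892). The genes of these 3 chains lie side by side on the forward strand of chromosome 11 (GRCm38, GENCODE M21 positions), Myh2 at chr11:67171027-67197517, Myh1 at chr11:67200052-67224575 and Myh4 at chr11:67238029-67260446. Among them only Myh4 was called, in 1 comparison. Myh7 had at most 0.714 CPM (parental GC tumor 1), with 14 of 20 tumors at or under 3 counts.

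Mylpf, the fast regulatory light chain that sits on the neck of the myosin head, had 30.5, 31.0, 23.8, 19.3 and 21.3 CPM in parental control and 48.1, 32.0, 30.5, 74.6 and 34.1 CPM in parental GC tumors. Every GC tumor but the third was above all controls (log2 fold change 0.80, SE 0.28, adjusted p = 0.193, exact permutation p = 0.0238). GRKO tumors had 23.7, 51.4, 23.1, 37.1 and 24.6 CPM with control cream and 15.8, 25.4, 33.5, 27.5 and 19.7 CPM with GC (log2 fold change -0.39, adjusted p = 0.403). The difference of 1.19 between the effects had an adjusted p of 0.120 (0.0449 with DESeq2, which called it). Of the 9 thick filament genes tested, all 9 had a positive log2 fold change in parental tumors (median 0.49) and 2 in GRKO tumors (median -0.36), and of these only Myh4 in GRKO tumors passed. The other thick filament genes, Myl1, Mylk2, Mybpc1, Mybpc2 and Myh8, had means of 0.772 to 18.3 CPM over the 20 tumors.

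Acta1, the actin of skeletal thin filaments, was the most abundant of the 37 genes in tumors. It measured 301, 247, 279.6, 235 and 279.5 CPM in parental control and 375, 123, 194, 197 and 247 CPM in parental GC tumors. Only GC tumor 1 exceeded the controls, and GC tumors 2, 3 and 4 were below all of them (log2 fold change -0.24, SE 0.25, adjusted p = 0.708). Acta1 thus lay on the other side of 0 from most of the set in parental tumors. GRKO control tumors had 318, 276, 483, 367 and 190.0 CPM and GRKO GC tumors 202, 256, 252, 168 and 184 CPM (log2 fold change -0.62, SE 0.25, adjusted p = 0.127, exact permutation p = 0.0476). In culture Acta1 ran from 0.484 to 4.62 CPM.

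The troponin subunits were counted by form. Troponin C counts were 94.2% Tnnc2, the fast form, and 5.78% Tnnc1, the form of slow fibers and heart, over the 20 tumors, and troponin I counts were 77.7% fast Tnni2, 16.2% cardiac Tnni3 and 6.10% slow Tnni1. Tnni3, which is not among the 37, shares an exon with Dnaaf3 on the same strand, so its count may be altered by that neighbor. Troponin T was led by Tnnt2, the cardiac and embryonic form, with 68.1% of the counts of its family in parental control, 51.4% in parental GC, 70.8% in GRKO control and 72.4% in GRKO GC tumors. The fast form Tnnt3 gave 28.7, 43.6, 23.9 and 25.5% in that order. Cultured cancer cells expressed Tnnt2 (mean 50.1 CPM, 80.1 in tumors) and Tnnc1 (7.12 CPM, 2.43 in tumors) themselves. The shares of these forms are therefore not those of muscle fibers alone, and the part of the cancer cells in them was not tested. Tnnt3 had 48.6, 23.5, 22.6, 21.8 and 24.2 CPM in parental control and 42.6, 52.4, 23.0, 62.2 and 30.8 CPM in parental GC tumors (log2 fold change 0.59, adjusted p = 0.319). In GRKO tumors it had 25.4, 41.0, 31.0, 42.2 and 44.4 CPM with control cream and 23.4, 37.8, 34.6, 32.8 and 29.8 CPM with GC (log2 fold change -0.22, adjusted p = 0.657). Among the 9 thin filament genes the median log2 fold change was 0.58 in parental tumors (6 above 0, 3 below) and -0.40 in GRKO tumors (3 above, 6 below).

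Of the Z disc and scaffold, Actn3, the alpha-actinin of fast fibers, had 2.61, 8.11, 6.53, 4.27 and 4.92 CPM in parental control and 10.4, 9.68, 6.10, 11.5 and 6.84 CPM in parental GC tumors (log2 fold change 0.75, adjusted p = 0.436). GRKO tumors had 9.82, 15.3, 10.5, 4.67 and 3.32 CPM of Actn3 with control cream and 4.01, 5.82, 3.33, 10.0 and 2.54 CPM with GC (-0.76, adjusted p = 0.273). All 4 groups overlap, and the GRKO value turned to 0.16 (adjusted p = 0.976) with control tumors 1, 2, 3 and 5 left out. Des, the intermediate filament desmin that links neighboring Z discs, had 7.83, 12.8, 10.7, 10.7 and 3.32 CPM in parental control and 17.0, 11.6, 9.15, 27.5 and 14.3 CPM in parental GC tumors (0.81, adjusted p = 0.317). Its GRKO tumors had 14.2, 12.4, 8.33, 8.07 and 9.83 CPM with control cream and 10.7, 20.9, 17.4, 7.10 and 7.94 CPM with GC (0.28, adjusted p = 0.678). Tcap, the telethonin that caps the end of titin at the Z disc, was chosen after its values were seen, as the muscle gene nearest to a call.

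Tcap measured 16.9, 16.0, 15.5, 15.2 and 8.64 CPM in parental control and 43.4, 28.5, 16.5, 50.3 and 26.6 CPM in parental GC tumors, every GC tumor but the third being above all controls. Its log2 fold change was 1.19 (SE 0.30, adjusted p = 0.0563, exact permutation p = 0.0159), and it passed without GC tumor 3 (1.37, adjusted p = 0.0226), with DESeq2 (1.20, adjusted p = 0.00745), with at least 10 counts in every sample (1.19, adjusted p = 0.0448), with the replicate number as a block (1.19, adjusted p = 0.0256) and with the number of genes detected as a covariate (1.19, adjusted p = 0.0267). GRKO tumors had 22.4, 22.6, 19.8, 19.0 and 11.4 CPM with control cream and 25.7, 21.4, 18.2, 12.2 and 11.9 CPM with GC (-0.09, adjusted p = 0.883). The 5 genes of the Z disc and scaffold all had a positive value in parental tumors (median 0.81), and in GRKO tumors 2 were above 0 and 3 below (median -0.09). The calls among them were Ttn in parental and Actn2 in GRKO tumors.

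Calcium handling was led by Atp2a1, the pump SERCA1 that refills the sarcoplasmic reticulum of fast fibers. It had 23.3, 22.0, 19.2, 15.1 and 13.0 CPM in parental control and 47.2, 28.9, 25.3, 36.2 and 28.4 CPM in parental GC tumors. Every GC tumor was above every control, with 18.5 ± 4.39 and 33.2 ± 8.81 CPM on average (log2 fold change 0.84, SE 0.24, exact permutation p = 0.00794), yet the adjusted p of 0.104 missed the threshold. It passed with DESeq2 (0.85, adjusted p = 0.0318) and with the number of genes detected as a covariate (0.85, adjusted p = 0.0468). GRKO tumors had 32.5, 16.2, 17.8, 28.4 and 18.3 CPM with control cream and 20.4, 26.7, 23.9, 24.2 and 19.2 CPM with GC. These overlap (log2 fold change 0.01, which turns negative with DESeq2, at -0.02, and with GRKO control tumors 1, 2, 3 and 5 left out, at -0.29).

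Ryr1, the calcium release channel, measured 9.17, 7.20, 3.09, 3.95 and 1.19 CPM in parental control and 10.8, 18.2, 7.82, 10.2 and 8.21 CPM in parental GC tumors (1.17, adjusted p = 0.215). GRKO tumors had 13.9, 7.23, 9.09, 4.98 and 16.5 CPM with control cream and 5.30, 7.71, 4.63, 8.26 and 4.22 CPM with GC (-0.78, adjusted p = 0.271), and the difference of the effects was 1.95 (SE 0.61, adjusted p = 0.111). It passed without GRKO control tumor 4 (2.12, adjusted p = 0.0356) and with DESeq2 (1.98, adjusted p = 0.0305). With control tumors 1, 2, 3 and 5 left out it was 0.87 (adjusted p = 0.910), and the GRKO effect turned to 0.30 (adjusted p = 0.960). Pvalb, the soluble calcium buffer parvalbumin of fast fibers, had 4.71, 8.11, 4.89, 5.57 and 4.92 CPM in parental control and 13.0, 5.65, 8.53, 3.59 and 9.29 CPM in parental GC tumors (0.50, adjusted p = 0.610). GRKO control tumors had 8.06, 9.20, 2.05, 17.0 and 7.37 CPM and GRKO GC tumors a narrow 4.68, 3.88, 4.45, 4.45 and 3.99 CPM (-1.03, adjusted p = 0.122). The controls fall on both sides of these GC values, tumor 3 below and the other 4 above, and without tumor 3 the gene passed (-1.28, adjusted p = 0.0378). Casq1, the calcium store protein calsequestrin, was low, between 0.0539 and 3.76 CPM. Its log2 fold changes were -0.19 in parental (SE 0.81) and -0.24 in GRKO tumors (SE 0.82).

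In energy supply, Ckm, the creatine kinase of muscle, had 27.2, 14.7, 22.4, 16.6 and 16.8 CPM in parental control and 29.3, 22.7, 14.6, 41.1 and 16.8 CPM in parental GC tumors (0.35, adjusted p = 0.615). GRKO tumors had 16.3, 32.9, 29.5, 28.4 and 16.6 CPM with control cream and 11.01, 14.4, 18.8, 14.2 and 11.4 CPM with GC. All GC tumors but the third were below every control (log2 fold change -0.82, SE 0.29, adjusted p = 0.0794, exact permutation p = 0.0317), and DESeq2 called it (-0.85, adjusted p = 0.0322). Mb, the oxygen store myoglobin, had 30.1, 23.6, 29.4, 28.5 and 20.9 CPM in parental control and 44.3, 48.4, 19.97, 66.5 and 30.3 CPM in parental GC tumors, where tumor 3 was the lowest and the other 4 were above all controls (0.66, adjusted p = 0.302). In GRKO tumors it had 27.6, 24.3, 24.6, 25.7 and 32.5 CPM with control cream and 18.7, 33.0, 19.8, 31.7 and 10.1 CPM with GC (-0.25, adjusted p = 0.629).

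Eno3, the muscle form of the glycolytic enzyme enolase, differed from the rest of the set in where it was found. It had 53.4, 62.9, 56.1, 51.7 and 64.9 CPM in parental control, 60.2, 28.7, 63.7, 87.0 and 58.8 CPM in parental GC, 72.8, 39.7, 97.0, 68.8 and 31.1 CPM in GRKO control and 80.6, 55.5, 71.0, 43.1 and 56.2 CPM in GRKO GC tumors. The log2 fold changes of GC were 0.05 and -0.01, the sign of both depending on the processing (0.24 in GRKO tumors without TMM scaling, -0.02 in parental tumors with the replicate number as a block). In culture it was higher, 162, 140.0 and 149 CPM in parental DMSO, 166 and 169.9 CPM in parental GC, 171, 161 and 202 CPM in GRKO DMSO and 155, 178 and 165 CPM in GRKO GC cells. The mean of 165 CPM over the cultures was 2.75 times the mean of 60.2 CPM over the tumors. Tnnc1 was the other gene with more in culture, 7.12 against 2.43 CPM on average (2.93 times), and the remaining 35 were higher in tumors. Tumors and cultures were separate experiments, and this comparison of levels was not tested.

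The ligases of muscle wasting did not pass in any comparison. Trim63 had 2.42, 7.58, 8.69, 5.46 and 5.62 CPM in parental control and 9.80, 1.57, 10.2, 2.61 and 7.86 CPM in parental GC tumors (0.10, adjusted p = 0.957). GC tumors 1 and 3 were above every control and GC tumor 2 was below every control. GRKO tumors had 2.34, 1.31, 3.76, 9.42 and 2.89 CPM with control cream and 15.6, 7.27, 9.93, 4.39 and 9.62 CPM with GC (log2 fold change 1.24, SE 0.53, adjusted p = 0.152, exact permutation p = 0.0317). Control tumor 4 is the high control, and without it the gene passed (1.87, adjusted p = 0.0229), while with it as the only control left, tumors 1, 2, 3 and 5 being out, the log2 fold change was 0.01 (adjusted p = 1.00). Fbxo32 had 28.5, 32.5, 17.6, 25.5 and 18.0 CPM in parental control and 18.0, 22.4, 31.0, 20.1 and 25.9 CPM in parental GC tumors (-0.06, adjusted p = 0.955). In GRKO tumors it had 18.9, 21.4, 12.5, 11.3 and 35.0 CPM with control cream and 29.0, 30.4, 29.4, 25.6 and 21.8 CPM with GC (0.46, adjusted p = 0.296), and in the cultures 0.896 to 3.32 CPM.

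The myogenic factors, which switch on the muscle program in precursors and regenerating fibers, were near the floor. Myog had 0.255, 0.0480, 0.617, 2.16 and 0.559 CPM in parental control, 1.17, 0.157, 0.133, 0 and 0.0570 CPM in parental GC, 0.513, 0, 0.273, 1.24 and 0 CPM in GRKO control and 0.357, 0, 1.08, 0.424 and 0.590 CPM in GRKO GC tumors. Its log2 fold changes of -1.24 and 0.26 have standard errors of 1.33 and 1.31. Myod1 reached at most 0.347 CPM (GRKO control tumor 4), and 14 of 20 tumors were at or under 3 counts. Both had 0 counts in all 11 cultures. Myod1 did not pass the filter and was not tested, and the wide standard errors of Myog leave its change undetermined.

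Tnnt2 was the muscle gene that the cancer cells expressed and that GC changed in them. In culture, where no host cell is present, it measured 36.3, 44.6 and 39.4 CPM in parental cells with DMSO and 13.2 and 11.7 CPM in parental cells with GC. Both GC cultures were below all 3 DMSO cultures, with means of 40.1 ± 4.19 and 12.5 ± 1.01 CPM (SD, n = 3 and 2). The log2 fold change was -1.69 (SE 0.16, adjusted p = 0.000287 from edgeR), and 1 of the 8 muscle genes tested in culture passed, where 0.878% of all 12525 genes did. In GRKO cells it was 64.4, 58.2 and 68.0 CPM with DMSO and 63.7, 73.1 and 78.6 CPM with GC. These overlap (log2 fold change 0.18, SE 0.13, adjusted p = 0.976), and the background share in this comparison was 0%, with 0 of all genes called by edgeR (237 at an unadjusted p under 0.05, none of them a muscle gene) and 0 by DESeq2 (269, again without a muscle gene).

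The GC effects on Tnnt2 in parental and GRKO cells differed by -1.86 (SE 0.21, adjusted p = 0.00275), a comparison added after seeing the data, in which 1 of 8 muscle genes and 0.295% of all genes were called. GRKO cells also had more Tnnt2 than parental cells under DMSO, all 3 above all 3 (log2 fold change 0.66, SE 0.13, adjusted p = 0.0100). Here 1 of 8 muscle genes was called, and 8.22% of all genes were, so this call is one among many. The culture calls held in every fit that left out 1 library. The other 7 muscle genes tested in culture passed in none of the comparisons.

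In tumors Tnnt2 passed between genotypes and not between treatments. Parental tumors had 66.7, 43.3, 76.2, 51.0 and 79.8 CPM with control cream and 33.6, 38.9, 56.0, 67.3 and 49.5 CPM with GC, which overlap (log2 fold change -0.37, SE 0.24, adjusted p = 0.505). GRKO tumors had 132, 150.4, 163, 71.0 and 75.3 CPM with control cream and 98.1, 94.5, 84.4, 89.6 and 80.7 CPM with GC, which overlap too (-0.40, SE 0.24, adjusted p = 0.309). The difference of the effects was 0.03 (SE 0.34), and it turned negative without TMM scaling (-0.30). The GRKO effect turned to 0.36 and the difference to -0.71 with GRKO control tumors 1, 2, 3 and 5 left out, neither past the threshold. GRKO control tumors were higher than parental ones by 0.90 (SE 0.24, adjusted p = 0.0482), and by 0.15 (adjusted p = 1.00) in that fit. This call was also lost without TMM scaling, with the replicate number as a block, with the number of genes detected as a covariate and with the pair of groups fitted alone. Under GC all 5 GRKO tumors were above all 5 parental tumors, by 0.87 (SE 0.24, exact permutation p = 0.00794), with an adjusted p of 0.112 that missed the threshold. The 5 GRKO GC tumors were close together (SD 7.10 around 89.5 CPM), while GRKO control tumors split into 3 higher ones (1, 2 and 3) and 2 lower ones (4 and 5).

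**Figure D4:**
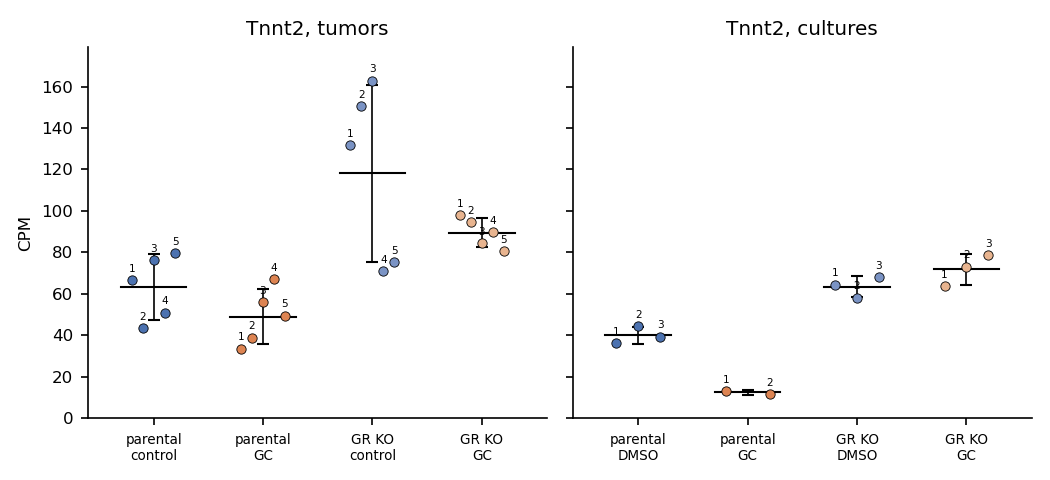
Tnnt2 level in CPM in each tumor and each culture, points numbered by replicate, with mean and standard deviation of each group. The 2 parental GC cultures (11.7 and 13.2 CPM) lie below the 3 parental DMSO cultures (36.3 to 44.6 CPM), and GRKO cultures run from 58.2 to 78.6 CPM.

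A second list of 55 other genes of striated muscle, from titin-binding to membrane proteins, was counted beside the 37, and 47 of them were tested in tumors. None was called with GC in parental tumors by edgeR (7 at an unadjusted p under 0.05, 1 called by DESeq2), with 39 positive, 8 negative and a median of 0.59. Of all 15919 tested genes 0.779% were called there, and 2249 had an unadjusted p under 0.05. None was called with GC in GRKO tumors (3 at an unadjusted p under 0.05, 2 by DESeq2), with 18 positive, 29 negative and a median of -0.36. There 6.42% of all genes were called, and 3893 of 15919 had an unadjusted p under 0.05. The test of the difference called 0 (4 at an unadjusted p under 0.05, 2 by DESeq2), with a median of 0.86. It called 0.195% of all genes, and 3192 of 15919 had an unadjusted p under 0.05. Between genotypes 1 passed under control cream by edgeR (4 at an unadjusted p under 0.05, 3 called by DESeq2). There 2.25% of all genes were called, and 3180 of 15919 had an unadjusted p under 0.05. The gene called by edgeR was Xirp2, an actin-binding protein of muscle cell junctions, higher in GRKO tumors by 1.00 (adjusted p = 0.0288). Its call was lost with GRKO control tumors 1, 2, 3 and 5 left out (log2 fold change 0.85). Under GC 0 passed (5 at an unadjusted p under 0.05, 0 by DESeq2), where 0.634% of all genes were called and 1816 had an unadjusted p under 0.05. The DESeq2 counts over all genes are given in the closing section on the processing. The summed level, led by Xirp2, was 189, 159.9, 145, 138 and 118 CPM in parental control and 289.8, 219, 183, 223 and 238 CPM in parental GC tumors. It was 181, 229, 253, 255 and 207 CPM in GRKO control and 204, 227, 263, 145 and 183 CPM in GRKO GC tumors. Of the 55, 24 had 0 counts in all cultures. In DMSO cultures 3 of 9 tested passed between genotypes, where 8.22% of all genes did: the junction protein genes Jph1 (4.46) and Jph2 (-4.31), and Trim54 (2.32).

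Genes known to answer glucocorticoids in muscle (14, of which 11 were tested in tumors) were called in part with GC. In parental tumors 5 rose and 6 did not pass, where 0.779% of all genes were called: Tsc22d3 (2.34), Per1 (2.19), Ddit4 (1.77), Pik3r1 (1.14) and Glul (0.86). In GRKO tumors 5 rose and 6 did not pass, where 6.42% of all were called: Fkbp5 (2.03), Tsc22d3 (1.77), Sesn1 (1.54), Per1 (1.29) and Ddit4 (1.19). Tsc22d3, the leucine zipper protein GILZ, had 60.8, 45.4, 71.5, 89.1 and 62.3 CPM in GRKO control and 249.8, 247, 206, 170.0 and 249.7 CPM in GRKO GC tumors, with no overlap. With GRKO control tumors 1, 2, 3 and 5 left out none of the 5 GRKO calls passed, with log2 fold changes of 0.53 to 1.54 (Tsc22d3 1.36, adjusted p = 0.322). In GRKO cultures it had 15.9, 18.2 and 19.5 CPM with DMSO and 20.5, 14.5 and 17.0 CPM with GC, which overlap. Parental cultures had 14.5, 10.6 and 15.4 CPM with DMSO and 116 and 114 CPM with GC. Fkbp5 was lower in GRKO than parental tumors under control cream (-1.50, adjusted p = 0.0296; -1.003 with the 4 control tumors left out, adjusted p = 0.985), and Per1 under GC (-1.24, adjusted p = 0.0242). In parental cultures 4 of 10 tested rose (0.878% of all genes were called), Tsc22d3 (3.09), Per1 (2.77), Fkbp5 (2.33) and Glul (1.02), and the effect differed between genotypes for Tsc22d3 (3.14) and Per1 (3.00), where 0.295% of all genes were called. Pik3r1 was lower in GRKO cultures under DMSO (-0.61; 8.22% of all genes were called). Both lists share 1 gene, Mstn, and this list holds Trim63 and Fbxo32 of the 37, neither of which passed.

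Markers of other cells were read for the same tumors, since skin and fat come with a tumor grown in skin. Of the 12 keratinocyte genes 2 were called with GC in parental tumors (0.779% of all genes) and 5 in GRKO tumors (6.42% of all), and the other 10 and 7 did not pass. Krt15 (1.45) and Lor (1.19) rose in parental tumors, and in GRKO tumors Krt10 (2.13) and Krt1 (1.85) rose while Krt14 (-1.42), Dsp (-1.18) and Lgals7 (-1.09) fell. Krt1 was also lower in GRKO than parental control tumors (-1.21). Adipocyte genes (12, with 11 tested, led by Cfd) summed to 192, 234, 172, 235 and 194 CPM in parental control and 186, 158, 196, 212 and 178 CPM in parental GC tumors. They summed to 158, 221, 182, 300.1 and 129 CPM in GRKO control and 115, 109.5, 92.9, 110.0 and 95.8 CPM in GRKO GC tumors, where 1 gene fell (Cfd, -1.31, and -1.15 between genotypes under GC). The smooth muscle genes (8, led by Acta2) summed to 441 to 1381 CPM in tumors and 2469 to 5456 CPM in cultures. Their group means were 600 CPM in parental control, 667 in parental GC, 1086 in GRKO control and 1049 in GRKO GC tumors. Acta2 (0.87) and Tagln (1.95) were higher in GRKO than parental control tumors, where 2.25% of all genes were called. The Schwann cell genes (8, led by Pmp22) averaged 156 CPM in parental control, 172 in parental GC, 162 in GRKO control and 135 in GRKO GC tumors. In cultures they averaged 152 CPM (parental DMSO), 187 (parental GC), 105 (GRKO DMSO) and 112 (GRKO GC), so their sum does not mark host cells alone. Of these genes 1 fell with GC in GRKO tumors (Cnp, -0.94). Of the 6 genes that every cell uses 1 fell there (Actb, -1.01). In cultures under DMSO, where 8.22% of all genes were called between genotypes, the adipocyte gene Plin4 (2.26) and the smooth muscle gene Tagln (1.12) were higher in GRKO cells, and the smooth muscle genes Actg2 (-4.05) and Lmod1 (-3.52) were lower. Cfd kept its call with GC in GRKO tumors (-1.76, adjusted p = 0.00647) when GRKO control tumors 1, 2, 3 and 5 were left out. The calls of the other markers in comparisons that use GRKO control tumors were lost. With GC in GRKO tumors the log2 fold changes were then 1.56 for Krt1, -0.93 for Dsp and -0.88 for Cnp, closer to 0 for Krt10 (0.64), Lgals7 (-0.39) and Krt14 (-0.08), and turned for Actb (0.14). Between genotypes they were -0.91 for Krt1 and 0.68 for Acta2, and turned for Tagln (-0.61). The part of these lists in the muscle results was not tested.

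The label of the tumors was read against melanocyte genes (8, with 5 tested). They summed to 25.9 to 55.9 CPM in tumors and 3.10 to 11.9 CPM in cultures, with Mitf the most abundant in both, and none was called in a tumor comparison. Tyr, the enzyme of pigment synthesis that defines the lineage, had 0 counts in all 20 tumors, and Dct, Tyr, Mlana, Sox10 and Slc45a2 had 0 in all 11 cultures. Mitf was lower in GRKO than in parental cultures under DMSO (-1.36, adjusted p = 0.00380). Of the 8 genes 5 are thus without a count in the cultures, while Mitf, Pmel and Tyrp1 had over 3 counts in at least 1 culture, and the name melanoma rests on the labels.

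The genes lie on many chromosomes, 9 of the 37 on chromosome 7, 7 on chromosome 1 and 6 on chromosome 11. None shares an exon with another gene on its own strand, and 16 do so with a gene on the opposite strand, such as Tnnc2 with Ube2c, Atp2a1 with Rabep2, Mb with Apol6 and Neb with Gm13522. No strand setting is named for the counting, and the methods leave unnamed settings at their defaults, which for this counting tool ignore strand, so tags of the opposite gene may be in those counts. The called genes without such a neighbor are Actn2 (chr13:12269426-12340760, reverse strand), Tnnt1 (chr7:4504570-4516382, reverse strand), Tnnt2 (chr1:135836354-135852260, forward strand) and Myh4. Those with one are Neb (chr2:52136647-52378474, reverse strand), Ttn (chr2:76703980-76982547, reverse strand) and Tnnc2 (chr2:164777161-164779967, reverse strand).

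The promoters are shown for the called genes that have one in the table, as the genes the results turn on, and for Trim63, the classic gene of glucocorticoid-driven wasting. A RefSeq table of the GRCm38.p6 build held promoters of 300 bases around the start of transcription for 29 of the 37 genes (35 promoters), and none for Neb, Fbxo32, Myod1, Tnnt3, Actn3, Mylk2, Tcap and Tnni2. Both strands were searched for 5 motifs. The E-box of myogenic factors, CAGCTG, was in 51.4% of the 35 promoters (16 genes) and in 16.3% of all 32851. The MEF2-type CTANNNNTAG was in 5.71% (Des and Ttn) against 3.69% of all, and TATAAA in 22.9% (8 genes) against 13.6%. The receptor's hexamer AGAACA was in 25.7% (Mb, Mybpc1, Myh4, Mylpf, Pvalb, Tnni1, Tnnt2 and Trim63) against 19.0% of all, and its full palindrome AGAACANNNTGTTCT in none of the 35 and in 3 of all promoters (0.00913%). Tnnt2 has 1 of its 2 promoters shown, with a pair of E-boxes and a hexamer (chr1:135836084-135836383, forward strand). Ttn (chr2:76982498-76982797, reverse strand) has the MEF2-type motif, and Tnnc2 (chr2:164779685-164779984, reverse strand) has none of the 5, and neither has Actn2 (chr13:12340683-12340982, reverse strand). Tnnt1 (chr7:4515926-4516225, reverse strand) has 1 TATAAA match. Myh4 (chr11:67237562-67237861, forward strand) has 3 TATAAA matches, an E-box and a hexamer. Trim63 (chr4:134314870-134315169, forward strand) has 1 TATAAA match, 1 E-box and 1 hexamer. Capitals mark the matches, which describe letters in these windows and not bound sites.
Tnnt2: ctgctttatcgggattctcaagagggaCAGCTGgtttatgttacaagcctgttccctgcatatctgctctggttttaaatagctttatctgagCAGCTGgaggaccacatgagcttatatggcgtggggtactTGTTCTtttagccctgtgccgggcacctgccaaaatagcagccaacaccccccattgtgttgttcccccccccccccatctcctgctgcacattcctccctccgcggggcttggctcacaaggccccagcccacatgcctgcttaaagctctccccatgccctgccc
Ttn: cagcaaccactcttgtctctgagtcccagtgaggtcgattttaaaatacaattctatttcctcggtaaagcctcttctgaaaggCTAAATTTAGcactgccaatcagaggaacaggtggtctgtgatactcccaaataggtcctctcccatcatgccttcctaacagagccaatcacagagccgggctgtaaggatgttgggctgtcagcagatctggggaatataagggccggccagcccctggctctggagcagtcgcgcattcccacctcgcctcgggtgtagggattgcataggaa
Myh4: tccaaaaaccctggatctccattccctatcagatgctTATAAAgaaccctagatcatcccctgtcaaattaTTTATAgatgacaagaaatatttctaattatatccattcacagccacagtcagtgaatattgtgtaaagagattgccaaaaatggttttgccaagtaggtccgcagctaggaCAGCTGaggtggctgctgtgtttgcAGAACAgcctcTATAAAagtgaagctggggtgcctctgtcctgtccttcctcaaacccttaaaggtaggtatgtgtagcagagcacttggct
Tnnc2: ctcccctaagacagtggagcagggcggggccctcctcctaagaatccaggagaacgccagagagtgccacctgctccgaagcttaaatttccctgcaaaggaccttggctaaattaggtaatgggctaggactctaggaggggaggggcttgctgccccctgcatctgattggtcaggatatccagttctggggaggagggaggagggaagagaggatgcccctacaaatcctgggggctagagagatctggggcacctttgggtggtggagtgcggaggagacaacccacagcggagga
Actn2: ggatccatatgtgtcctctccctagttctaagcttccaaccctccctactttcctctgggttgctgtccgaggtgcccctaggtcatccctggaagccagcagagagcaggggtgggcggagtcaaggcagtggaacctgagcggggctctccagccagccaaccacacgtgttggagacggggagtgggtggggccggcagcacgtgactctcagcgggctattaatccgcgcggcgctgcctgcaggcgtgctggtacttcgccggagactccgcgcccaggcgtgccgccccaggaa
Tnnt1: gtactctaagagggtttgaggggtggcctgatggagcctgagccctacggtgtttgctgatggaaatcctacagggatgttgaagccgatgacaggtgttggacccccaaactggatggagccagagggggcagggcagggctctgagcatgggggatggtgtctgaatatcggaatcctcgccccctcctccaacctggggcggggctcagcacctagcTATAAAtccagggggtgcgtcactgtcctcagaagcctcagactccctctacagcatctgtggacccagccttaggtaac
Trim63: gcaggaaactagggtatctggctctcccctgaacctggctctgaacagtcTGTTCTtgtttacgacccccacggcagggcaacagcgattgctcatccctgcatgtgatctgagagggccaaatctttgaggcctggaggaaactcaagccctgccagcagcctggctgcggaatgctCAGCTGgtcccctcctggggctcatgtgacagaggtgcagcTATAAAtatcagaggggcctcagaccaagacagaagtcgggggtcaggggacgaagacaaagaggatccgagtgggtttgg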

How the data were processed

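The deposited values are raw counts per gene, which the authors made from 3′ mRNA libraries by trimming, alignment to GRCm38 and counting of reads over an Ensembl annotation; no strand setting of the counting is named, and unnamed settings were left at their defaults. The 20 tumor libraries (15528066 to 26386770 counts) and the 11 culture libraries (14441166 to 22463188 counts) were fitted separately with edgeR 4.0.16 (quasi-likelihood, TMM; limma 3.58.1, R 4.3.3), over genes with at least 0.5 CPM in at least 3 samples, with p adjusted by Benjamini-Hochberg over all genes tested. A gene was called at an adjusted p under 0.05 and a fold change of at least 1.5. Single genes were also compared by a 2-sided exact permutation test on log2(CPM + 1).

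The 37 genes and the lists of other muscle, glucocorticoid response, smooth muscle, keratinocyte, adipocyte, Schwann cell, melanocyte and ubiquitous genes were chosen with earlier results of these data known. Genes named in full are 1 to 5 per role, chosen by role, with Tnnt2, every listed gene called in a comparison and Nr3c1; others named are marked as chosen after their values were seen. Positions come from GENCODE M21 and promoters from RefSeq GRCm38.p6. Alternatives were DESeq2 1.42.0, its size factors in edgeR, no TMM, other filters, other fold changes, a replicate block, robust estimation, groups fitted in pairs, another pseudocount and each library left out. The covariate of genes detected, the fits without 4 GRKO control tumors and the difference of GC effects in culture were added after seeing the data. A check of the calling of changes on simulated data was also run, and its outcome is not reported here. No library was left out of the reported fits.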

Additional observations from a re-analysis of the deposited data

Results flagged for a closer look

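In some groups of 5 tumors 1 tumor was so far from the other 4 that its gap to the nearest of them took up most of the range of the group. Of the 112 groups looked at, 14 had such a tumor, where chance gives about 1 in 20 for independent values with a normal spread, which CPM of several genes in the same tumors need not have. Among parental control tumors, Myh2 was 40.6 CPM and Tnnt3 48.6 CPM in tumor 1, both the highest of the group, and Myod1 was 0.0 CPM there, the lowest. Pvalb was 8.11 CPM in tumor 2 and Myog 2.16 CPM in tumor 4, the highest, and Tnnt1 was 1.38 CPM in tumor 5, the lowest. Among parental GC tumors, Ryr1 was highest in tumor 2, at 18.2 CPM, and Myog in tumor 1, at 1.17 CPM. Among GRKO control tumors, Myod1 was highest in tumor 4, at 0.347 CPM. Among GRKO GC tumors, Myh4 was lowest in tumor 4, at 5.45 CPM, and tumor 3 had the highest Myh2 (68.4 CPM), Neb (47.0 CPM), Myh7 (0.27 CPM) and Myod1 (0.225 CPM). The values for Myod1 and Myh7 come from a handful of counts.

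The GC effect differed between the genotypes for 2 genes by a test of that difference. For Tnnc2 in tumors the parental effect minus the GRKO effect was 1.89 on the log2 scale. For Tnnt2 in culture it was -1.86.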

How the results depend on the processing

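Alternatives tried in full were DESeq2, its size factors within edgeR, no TMM factors, no filter, a filter of at least 10 counts in every sample, other minimum fold changes, a replicate block, robust estimation, groups fitted in pairs, and each library left out. The covariate of genes detected at equal depth and the fits without GRKO control tumors 1, 2, 3 and 5 were chosen after seeing the data. Where a count or direction moved, the cause was not tested.

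With DESeq2 the muscle genes called were 4 for GC in parental tumors (2 as reported), 6 for GC in GRKO tumors (4), 8 for the difference of GC effects (1), 4 between genotypes under control cream (2) and 4 under GC (1), and the log2 fold change of Atp2a1 for GC in GRKO tumors was -0.020, as it was with DESeq2 size factors in edgeR (-0.020). Without TMM factors the counts were 1 for GC in parental tumors, 1 for GC in GRKO tumors and 0 for the difference and for both comparisons of genotypes. Directions turned there for GC in GRKO tumors in Myh1 (0.21), Tnnt3 (0.029), Eno3 (0.24) and Tcap (0.18), and for the difference in Myh2 (-0.28), Casq1 (-0.14), Eno3 (-0.22) and Tnnt2 (-0.30). With at least 10 counts in every sample Eno3 was 0.0036 for GC in GRKO tumors. A fold change of at least 2 left 1 muscle gene between genotypes under control cream and 0 in DMSO cultures. With the replicate block the comparison of genotypes called 0 under control cream and 2 under GC, Eno3 was -0.023 and Trim63 -0.074 for GC in parental tumors, Eno3 was 0.045 in GRKO tumors, and the difference was -0.054 for Casq1 and -0.069 for Eno3. The labels do not say that replicate numbers pair samples. The deviations of tumors with the same number had a mean correlation of 0.0583 across genes (-0.543 to 0.415 over 30 pairs). For tumors with different numbers the mean was -0.0128. Of the 20 tumors, 7 correlated best with a tumor of their own number, so a link by number was neither shown nor excluded.

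With the covariate the counts were 4 for GC in parental tumors, 2 for GC in GRKO tumors, 0 and 3 between genotypes under control cream and GC, and 2 in DMSO cultures. Trim63 was -0.21 for GC in parental tumors, Mb 0.0010 in GRKO tumors, and the difference -0.19 for Myh2 and -0.19 for Tnnt2. With GRKO control tumors 1, 2, 3 and 5 left out 0 muscle genes were called for GC in GRKO tumors, for the difference and between genotypes under control cream (edgeR; 9, 13 and 7 at an unadjusted p under 0.05, DESeq2 not run on these), and 1 control tumor was assumed to vary like the other groups. For GC in GRKO tumors Tnnt1 was then 0.019, Actn3 0.16, Atp2a1 -0.29, Ryr1 0.30 and Tnnt2 0.36, and the difference was -0.84 for Myh2, 0.11 for Trim63 and -0.71 for Tnnt2. With groups fitted in pairs the counts were 1 for GC in parental tumors, 1 for GC in GRKO tumors and 0 between genotypes under control cream and under GC. Without Acta1 the mean summed CPM was 548, 809, 724 and 597 for parental control, parental GC, GRKO control and GRKO GC tumors.

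Leaving out 1 library, the calls ran from 0 to 2 for GC in parental tumors, 1 to 5 for GC in GRKO tumors, 0 to 5 for the difference, 0 to 4 between genotypes under control cream and 0 to 1 under GC, and those in culture did not move (1 to 1, and 0 to 0 for GC in GRKO cells). GC in parental tumors had 0 calls without control tumor 3, 4 or 5 or GC tumor 1, 2, 4 or 5, and 1 without control tumor 1. GC in GRKO tumors had 2 without control tumor 1 or 2 or GC tumor 3, and 1 without GC tumor 5. The difference had 0 without parental control tumor 3, GRKO control tumor 2 or GRKO GC tumor 5, and 5 without GRKO control tumor 4. Under control cream the genotypes gave 0 without parental tumors 1 to 4 or GRKO tumor 2, 1 without parental tumor 5 or GRKO tumor 1 or 3, and 4 without GRKO tumor 4. Under GC they gave 0 without parental tumor 4 or GRKO tumor 1, 3, 4 or 5. The mean summed CPM ran from 785 to 833 (parental control), 972 to 1091 (parental GC), 1008 to 1119 (GRKO control) and 769 to 844 (GRKO GC). Directions that turned belong to values near 0: for GC in parental tumors Actn2 (-0.053 to 0.15), Casq1 (-0.56 to 0.14), Eno3 (-0.13 to 0.22), Fbxo32 (-0.17 to 0.073) and Trim63 (-0.11 to 0.35), for GC in GRKO tumors Atp2a1 (-0.086 to 0.18), Casq1 (-0.58 to 0.33), Eno3 (-0.18 to 0.21), Myh1 (-0.26 to 0.26), Myh2 (-0.13 to 0.41) and Tcap (-0.26 to 0.028), and for the difference Casq1 (-0.50 to 0.41), Eno3 (-0.16 to 0.24), Myh2 (-0.21 to 0.34) and Tnnt2 (-0.11 to 0.17).

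Of the fold changes of single genes, 68 of 78 kept direction and side of the threshold with DESeq2 (9 more passed), 77 with DESeq2 size factors, 62 without TMM (8 no longer passed), 70 with the replicate block, 68 with the covariate, and 78 each with robust estimation and with no filter. Counts over all genes moved more. DESeq2 called 378 for GC in parental tumors (124 as reported), 1779 in GRKO tumors (1022), 817 for the difference (31), 1004 between genotypes under control cream (358), 289 under GC (101), and in culture 251 for GC in parental cells (110) and 128 for the difference (37). Without TMM, 78.7% of the calls for GC in GRKO tumors were higher (42.2% as reported), 30.0% of those for the difference (64.5%) and 17.3% of those between genotypes under control cream (56.1%). With GRKO control tumors 1, 2, 3 and 5 left out, 32 genes were called for GC in GRKO tumors and 0 for the difference and between genotypes under control cream (edgeR; 971 and 875 at an unadjusted p under 0.05). The covariate gave 510, 216, 12, 51 and 358 in the 5 tumor comparisons in the same order, and 205, 73 and 2877 in culture, for GC in parental cells, the difference and genotypes under DMSO. Other all-gene counts that moved were 10 for the difference without TMM, 49 and, in culture, 64 for the difference with no filter, 66 for it with at least 10 counts in every sample and 661 for genotypes under DMSO (1030 as reported). A fold change of at least 2 gave 583 for GC in GRKO tumors and 238 between genotypes under control cream. The block gave 144 for the difference, 160 between genotypes under GC and 63 for GC in parental cells, and pairs of groups gave 381 for GC in GRKO tumors, 165 between genotypes under control cream and 60 for GC in parental cells. The share of higher calls also moved between genotypes under GC (30.7% as reported, 41.9% with DESeq2, 43.8% with the block, 46.1% with the covariate) and under control cream (21.6% with the covariate, 68.5% in pairs), for GC in parental tumors (55.6 to 39.0% with the covariate) and GRKO tumors (15.6% with the 4 control tumors left out), and in culture (GC in parental cells 70.0 to 54.6% and the difference 75.7 to 58.6% with DESeq2, genotypes 26.5 to 53.7% with the covariate). Myh7 and Myod1 lie near the floor, with 14 of 20 tumors each at or under 3 counts, and were not tested in tumors. Myog and Myh8 were at or under 3 counts in 8 tumors each and Casq1 in 3. The values of these low genes are uncertain.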
